A study of Mus musculus with 2 samples.

Results

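The collagens that fibroblasts lay down in skin, tendon and scar were followed here in cultured mouse chondrocytes. The genes are Col1a1, Col1a2, Col3a1, Col5a1, Col5a2, Col6a1, Col6a2, Col6a3, Col12a1 and Col14a1, chosen by name. Probes were those whose RefSeq transcript accession belongs to one of these genes, and the brightest probe represents each gene. Of the 10 genes, 9 had a probe, which gave 10 probes among the 55678 kept on the arrays, and no probe was matched to Col12a1, the gene of type XII collagen. All 10 probes were well above background on both arrays.

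Primary chondrocytes of 6-day-old C57BL/6J mice had been cultured for 48 h on fibronectin-coated stretch chambers. RNA of these cells before loading went on 1 array. RNA taken 24 h after cyclic stretching, with 10% elongation at 0.5 Hz for 30 min, went on a second array of the same slide. The cells carried no transgene or drug treatment that the labels name, and how many animals were pooled is not given in the sources used here. With 1 array per time point there were no replicates, so no test was made and no p-value or SD between samples is given. There were 0 unloaded arrays at 24 h, so the effects of loading and of the further 24 h of culture cannot be told apart. Freshly isolated chondrocytes were not analysed here, so brightness before loading describes cells already in culture and holds no change from cartilage.

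A collagen is a trimer of chains wound into a triple helix, and each chain has its own gene. Types I and III build the thick fibrils of skin, bone, tendon and healing wounds, type V starts and narrows these fibrils, type VI forms beaded microfilaments around cells, and types XII and XIV sit on fibril surfaces. Cartilage fibrils are built of types II, IX and XI instead. Chondrocytes that are kept flat on a dish are known to lose the cartilage collagens and to make type I, a shift called dedifferentiation.

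Probes of the fibroblast-type collagens were bright before loading, and none of them differed by as much as 2-fold 24 h later. Brightness is the processed intensity of a probe in scanner units, and its percentile is the share of the 55678 probes that were dimmer. Over the 9 genes, the percentile before loading ranged from 81.6 to 98.9, with a median of 95.9. The lower end depends on what is counted: among genes in place of probes, Col14a1 lay at 68.9 and Col5a2 at 74.4. A total of 6 genes lay above percentile 95, and 0 above percentile 99. Ratios are on the log2 scale, the level 24 h after loading minus that before, with each array set to its 75th percentile, an intensity of 466 on both. They ranged from -0.41 for Col6a3 to 0.13 for Col3a1. The count past 2-fold was 0 of 9 in either direction, where 2.50% of the 14227 genes detected on both arrays were past 2-fold (0.668% higher and 1.83% lower). Of these calls 26.8% were higher, a share that was 38.8% with median scaling and 42.6% with scaling to spike-in controls. Past 1.5-fold, the count was again 0 of 9, against 9.50% of detected genes. The error that the scanner software gave for a ratio, which covers error within an array only, was 0.20 for each of the 9 genes. It hardly varied between them (0.2040 to 0.2042) and had a median of 0.2043 over detected genes, so it is the software's estimate. It is not a spread measured on these probes, which had 1 spot each. Among 380 probes with at least 8 spots, the median SD of the log2 ratio between spots was 0.11. It was 0.06 for the 128 of them brighter than 2 times the 75th percentile. Beyond 1 such error lay Col5a2 and Col6a3, both lower at 24 h, a count of 2 of 9 against 43.4% of detected genes. Beyond 2 errors there were 0 of 9, against 17.0% of detected genes. The median ratio of the 9 genes was -0.04, beside -0.01 over all detected genes. A bulk array cannot tell fewer cells of a type from less RNA per cell.

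**Figure D1:**
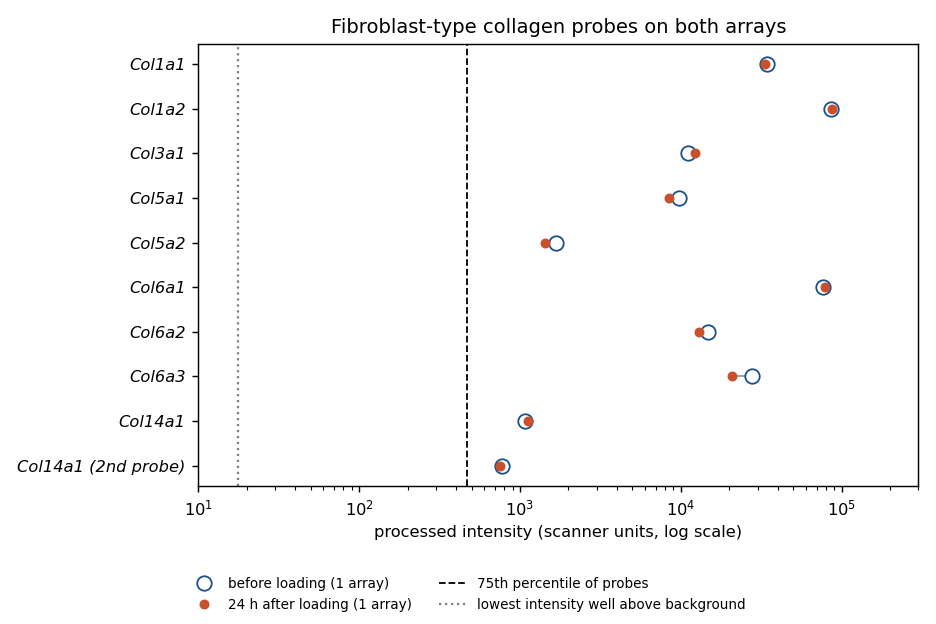
Processed intensity of every probe of the fibroblast-type collagens (x axis, scanner units, log scale) before loading (open circles) and 24 h after loading (filled circles), 1 array each. The dashed line is the 75th percentile of all probes at 466, the dotted line the lowest intensity well above background, and all 10 probes lie to the right of both, with the widest gap between circles for Col6a3.

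Sequence before the start of 4 of these genes is shown, picked by their values. Col1a2 had the brightest probe, Col3a1 the highest ratio and Col6a3 the lowest, and Col6a1 is the type VI partner chain from which Col6a3 differed most. A link between these sequences and the ratios was not tested. Each is the 250 bases before the annotated start, 5′ to 3′ on the strand of the gene, from RefSeq (GRCm38.p6). Capitals mark 3 motifs, searched on either strand. The first, CCAAT, is known to be bound by the factor NF-Y. TATAAA, the letters of a TATA box, was counted anywhere in the 250 bases, so a match need not be a working TATA box. The motif GGGCGG is known to be bound by Sp1.
Col1a2, chr6:4505368-4505617, plus strand: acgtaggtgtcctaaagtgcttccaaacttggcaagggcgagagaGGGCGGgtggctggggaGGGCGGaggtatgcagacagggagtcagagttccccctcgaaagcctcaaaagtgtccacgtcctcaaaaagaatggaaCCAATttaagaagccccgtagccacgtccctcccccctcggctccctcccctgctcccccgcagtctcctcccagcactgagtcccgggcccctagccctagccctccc
Col3a1, chr1:45311288-45311537, plus strand: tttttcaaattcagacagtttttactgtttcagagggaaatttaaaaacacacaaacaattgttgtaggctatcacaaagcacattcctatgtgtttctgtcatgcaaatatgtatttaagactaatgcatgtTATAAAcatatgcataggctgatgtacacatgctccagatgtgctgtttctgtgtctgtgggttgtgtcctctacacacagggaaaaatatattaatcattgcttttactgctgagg
Col6a1, chr10:76726045-76726294, minus strand: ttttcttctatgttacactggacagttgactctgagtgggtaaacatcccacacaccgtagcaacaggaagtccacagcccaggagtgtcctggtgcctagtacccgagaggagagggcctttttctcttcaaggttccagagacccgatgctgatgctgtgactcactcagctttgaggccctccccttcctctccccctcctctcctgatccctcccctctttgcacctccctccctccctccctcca
Col6a3, chr1:90843972-90844221, minus strand: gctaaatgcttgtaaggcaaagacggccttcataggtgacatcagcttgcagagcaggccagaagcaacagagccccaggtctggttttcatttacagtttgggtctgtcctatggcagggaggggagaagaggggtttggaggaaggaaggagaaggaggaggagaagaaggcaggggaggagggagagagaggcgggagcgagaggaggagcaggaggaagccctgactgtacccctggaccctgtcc
The Col1a2 sequence held CCAAT from 109 to 105 bases before the start and GGGCGG at 205 to 200 and again at 188 to 183. Col3a1 held TATAAA from 117 to 112 bases before the start. In Col6a1 and Col6a3 these letters were not in the window. RefSeq promoters were found for 6 of the 10 genes, 7 promoters in all because Col6a2 had 2 starts. Among them CCAAT stood in 1 of 7, against 33.8% of all 32851 promoters searched over the same length and on both strands. For TATAAA the count was 1 of 7 against 12.4%, and for GGGCGG it was 4 of 7 against 32.7%. By gene, GGGCGG stood in 3 of 6, because Col6a2 held it in both promoters. The 7 promoters of cartilage collagens gave like counts, 2 with CCAAT, 2 with TATAAA and 4 with GGGCGG. GC content was 35.2% for Col3a1 and 76.4% for Col5a1, the lowest and the highest of the 7. Its median was 59.2% over the 7 and 52.4% over all promoters.

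The α1 chain of type I collagen, the main protein of bone, skin and tendon fibrils, is made by Col1a1. Its probe (NM_007742) read 34458 before loading and 33493 at 24 h, a log2 ratio of -0.04. Before loading it was brighter than 97.7% of probes and ranked 1272, and at 24 h it ranked 1214. Its partner in the same trimer, Col1a2, encodes the α2 chain. The Col1a2 probe (NM_007743) read 85821 before loading and 86576 at 24 h, a log2 ratio of 0.01. It ranked 606 before loading and 545 at 24 h, the best rank of the 9 genes on both arrays. The ratios of the type I chains differed by 0.05, with an error of 0.29 for a difference between ratios. Both ratios lay inside their within-array error of 0.20. The small negative ratio of Col1a1 turned positive under 4 of 8 other settings, as given in the closing part, and spanned -0.04 to 0.08.

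Type III collagen, which mixes with type I in skin, vessels and early scar, is a trimer of the Col3a1 chain alone. The Col3a1 probe (NM_009930) read 11149 before loading and 12205 at 24 h, a log2 ratio of 0.13. It ranked 2704 before loading and 2507 at 24 h. This was the highest ratio of the 9 genes, yet it stayed under its error of 0.20, and 61.5% of detected genes had a larger ratio in size. Across the settings tried it reached 0.25 and was never below 0.13.

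Type V collagen sits inside type I fibrils and sets their number and width. Its α1 chain is made by Col5a1, whose probe (NM_015734) read 9729 before loading and 8462 at 24 h. The log2 ratio was -0.20, just inside its error. The α2 chain is made by Col5a2, whose probe (NM_007737) read 1678 before loading and 1431 at 24 h, a log2 ratio of -0.23, just outside its error. These 2 chains were thus dimmer at 24 h by a like amount, and their ratios differed by 0.03 in size against an error of 0.29. The remaining type V chain gene, Col5a3, is not in the set and was named after its values were seen. It went the other way, at 738 and then 1006, a log2 ratio of 0.45. Col5a1 ranked 2976 before loading and Col5a2 ranked 8460. The ranks cannot be read as amounts, because brightness also depends on how well a probe hybridises. On chromosome 1 of the RefSeq table, Col5a2 and Col3a1 are neighbours with 0 genes between them. Their ratios had opposite signs under all settings tried, but several settings could hardly have changed this, as given in the closing part. The Col3a1 ratio also lay inside its error in the main setting.

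Type VI collagen, a microfilament protein that is also found around healthy chondrocytes, has a chain from each of Col6a1, Col6a2 and Col6a3. The α1 probe (Col6a1, NM_009933) read 76210 before loading and 78946 at 24 h, with a log2 ratio of 0.05 and a rank of 684 before loading. The α2 probe (Col6a2, NM_146007) read 14703 and then 12996, with a log2 ratio of -0.18 and a rank of 2258. The α3 probe (Col6a3, NM_001243008), for the longest of the 3 chains, read 27535 and then 20746, with a log2 ratio of -0.41 and a rank of 1463. Col6a3 was therefore 1.33-fold lower at 24 h, the widest difference among the 9 genes and just under 2 within-array errors. Of all detected genes, 10.6% had a lower ratio and 18.6% a larger ratio in size, so that a difference of this size was common on these arrays. Col6a3 minus Col6a1 was -0.46, Col6a3 minus Col6a2 was -0.23 and Col6a2 minus Col6a1 was -0.23, each with an error of 0.29, so only the first was wider than that error. Col6a1 and Col6a2 lie on chromosome 10 with 2 genes between them, 0 of them protein coding.

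Type XIV collagen is made by Col14a1, which binds to the surface of fibrils in tendon and skin. It was the only gene of the set with more than 1 probe, and both probes name the same transcript (NM_181277). The brighter probe read 1068 before loading and 1122 at 24 h, a log2 ratio of 0.07 and a rank of 10230. The dimmer one read 769 and then 748, a log2 ratio of -0.04 and a rank of 11645. The signs differed, and both ratios were well inside their error of 0.20. Their percentiles before loading were 81.6 and 79.1, so both probes of this transcript were of like brightness.

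**Figure D2:**
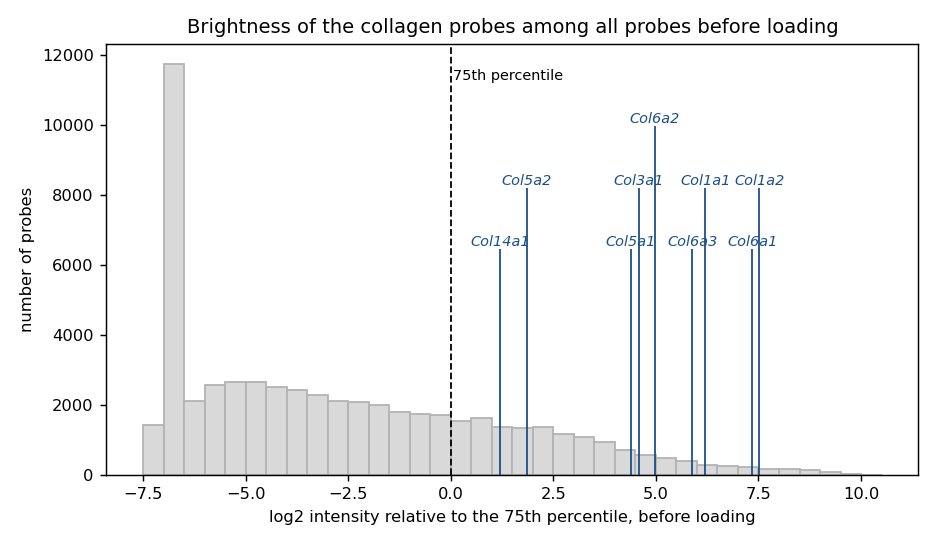
Number of probes (y axis) by log2 intensity relative to the 75th percentile (x axis) on the array before loading, for all 55678 probes, with a mark for each of the 9 fibroblast-type collagen genes at its brightest probe. The marks, whose height carries no value, run from 1.20 for Col14a1 to 7.52 for Col1a2, all to the right of the 75th percentile (dashed line).

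The order of the 9 probes by brightness was the same on both arrays. From the brightest down it was Col1a2, Col6a1, Col1a1, Col6a3, Col6a2, Col3a1, Col5a1, Col5a2 and Col14a1. It is an order of probes, and no replicate spread was at hand to say which neighbours in it differ. The span from Col14a1 to Col1a2 was 80.4-fold. Summed over the 9 genes, the intensity was 262350 before loading and 255977 at 24 h, a ratio of 0.976. Col1a2 and Col6a1 held 61.8% of that sum before loading, so it mostly follows these 2 probes.

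**Figure D3:**
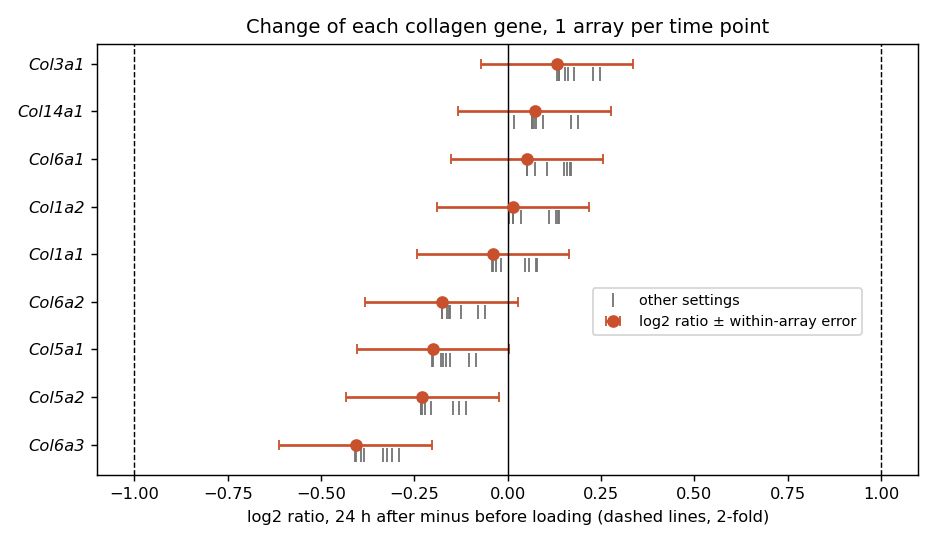
Log2 ratio of intensity, 24 h after minus before loading (x axis), for each fibroblast-type collagen gene with a probe, at its brightest probe. The dimmer Col14a1 probe is not drawn. Bars are 1 within-array error of the scanner software, and grey ticks come from alternative settings. The main ratios run from -0.41 for Col6a3 to 0.13 for Col3a1, and 1 array per time point gives no replicate error.

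The surroundings of the collagen spots were also read. Each spot had 16 to 30 neighbours within 100 µm on the array, of which 8 to 22 were well above background on both arrays. Only the latter were read, and among them at most 1 was higher and at most 1 lower by more than 2-fold. The median ratio of these bright neighbours ranged from -0.12 around Col6a1 to 0.20 around Col5a2, whose own ratio was -0.23. The part of position on the array in these ratios was not tested.

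The labelled cell type was checked against its markers. All 16 chondrocyte genes listed were detected on both arrays, at percentiles of 92.6 and above before loading, and their summed intensity was 1703056 before loading and 1705461 at 24 h. Col2a1, the chain of type II collagen, ranked 3 among all probes before loading and read 499543 and then 474876, a log2 ratio of -0.07 that turned positive under the same 4 settings as Col1a1. Acan, the core protein of the cartilage proteoglycan aggrecan, had a ratio of 0.34, and Sox9, the transcription factor that drives cartilage genes, a ratio of 0.22. The lowest ratio of this list was -0.82 for Col11a1 and the highest 0.56 for Matn1. Past 2-fold there were 0 of 16, against 2.50% of all detected genes. The defining genes of the chondrocyte were thus bright on the same arrays as the fibroblast-type collagens. Whether both come from the same cells was not tested.

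Markers of other cells that make these collagens were read beside them. Of 15 fibroblast markers, 14 were detected, and their summed intensity was 184178 before loading and 137090 at 24 h. In this list Dpt, a dermal fibril-binding protein, was higher (59.2 and then 253, log2 ratio 2.10, or 1.34 with normexp background correction), and S100a4, a calcium-binding protein of motile fibroblasts, was lower (30956 and then 11381, log2 ratio -1.44, with -1.52 at its second probe). The median of the list was 0.11, and 9 of the 14 ratios were above 0. The lower sum followed S100a4 and Vim, an intermediate filament protein named after its values were seen, which read 109765 and then 78404. The 5 myofibroblast markers were all detected, summed to 28565 and then 21736, and ran from -0.57 for Tagln to 0.35 for Myl9 with a median of -0.31. Of 6 tenocyte markers, 5 were detected, with sums of 29915 and then 40591, a median of 0.21, the lowest ratio of -0.44 for Scx and the highest of 0.52 for Tnmd, a dim probe (40.3 and then 57.8) that gave 0.20 with normexp. The tenocyte sum followed Fmod, a fibril-binding proteoglycan named after its values were seen, which read 26910 and then 38232. Kera was not well above background. Of 9 osteoblast markers, 8 had a probe and 6 were detected, with sums of 2210 and then 1893 and a median of -0.49, the highest ratio being 0.44 for Bglap2. Dmp1 and Ifitm5 were not well above background. Ibsp, a bone matrix protein also found in hypertrophic cartilage, was lower at -2.06, or -1.36 with normexp. The part of these cells in the collagen signal was not tested.

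The remaining marker lists are given in brief. All 8 hypertrophic markers were detected, with a median of -0.68, and Ibsp, Col10a1 (-1.54) and Ihh (-1.30) were lower past 2-fold while Mmp13 was highest at 0.49. All 4 synovial lining and superficial zone markers were detected, with a median of 0.43 and Prg4 lowest at -0.47. Htra4 was past 2-fold at 1.65, a dim probe (73.8 and then 232) that gave 1.14 with normexp. Of 6 macrophage markers 5 were detected, with a median of 0.21, Csf1r lowest at -0.15 (0.11 as the mean of its 3 probes) and Ptprc highest at 1.14, a dim probe (20.9 and then 46.1) that gave 0.40 with normexp. Of 5 endothelial markers 3 were detected, with a median of -0.05 that turned sign under 4 settings. They were Vwf at -0.48 (-0.15 with normexp), Kdr at -0.05 with a percentile of 95.5 before loading, and Pecam1 at 0.23, while Cdh5 and Tie1 were not well above background. Of 5 skeletal muscle markers 3 were detected, with a median of -0.13, from -0.31 for Acta1 to 0.64 for Myh3, and Ckm and Des were not well above background.

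The other collagen genes, of which more were detected, spanned a wider range than the fibroblast-type ones. All 8 cartilage collagens were detected, with a median of 0.06 beside the -0.04 of the fibroblast-type collagens, and they ran from -1.54 for Col10a1, the collagen of hypertrophic cartilage, to 0.50 for Col27a1. Col10a1 was the only one of these 8 past 2-fold. Of 26 further collagen genes, 18 were detected, with a median of 0.02. Among these, Col22a1, a collagen of tissue junctions, was higher at 1.27, or 1.04 with normexp. Col17a1, a transmembrane collagen of epithelia, was lower at -2.35, or -1.06 with normexp. Both probes were dimmer than those of the fibroblast-type collagens, at 229 and then 552 for Col22a1 and 129 and then 25.4 for Col17a1. The other type VI chains, Col6a4, Col6a5 and Col6a6, were not well above background on both arrays, so that the type VI signal measured here came from Col6a1, Col6a2 and Col6a3.

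**Figure D4:**
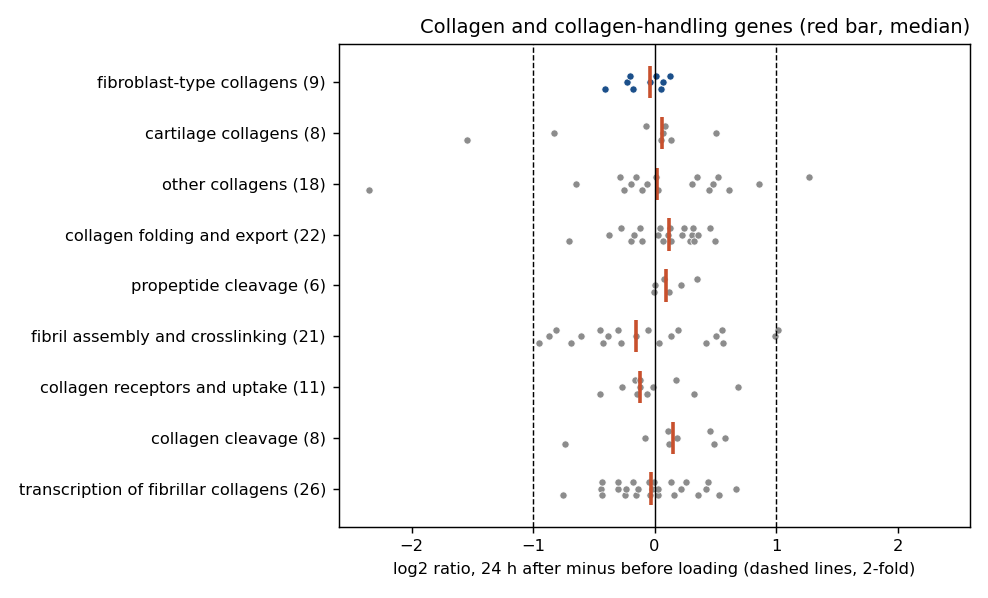
Log2 ratio, 24 h after minus before loading (x axis), of each detected gene in the fibroblast-type collagens and in lists of other collagens and of genes that handle collagen, with the number of genes in brackets. Red bars are list medians and dashed lines mark 2-fold; the fibroblast-type collagens run from -0.41 to 0.13, inside the range of the other collagens, -2.35 to 1.27.

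Genes that fold, export, trim and assemble collagen chains were described by the same values. All 22 genes of folding and export were detected and 0 passed 2-fold, where 2.50% of all detected genes did. Their median was 0.12, from -0.71 for P3h2, a prolyl hydroxylase, to 0.50 for Fkbp14, a prolyl isomerase of the endoplasmic reticulum. Of 10 genes that cleave the propeptides, 6 were detected and 0 passed 2-fold, with a median of 0.10. In that list Pcolce, which enhances cleavage of fibrillar procollagen, was lowest at -0.01, a sign that turned under 6 settings. Bmp1, the protease that removes the C-terminal propeptide, was highest at 0.35, but 0.12 as the mean of its 3 probes. Of 23 genes of fibril assembly and crosslinking, 22 had a probe and 21 were detected, with a median of -0.15 that was 0.03 with loess correction. Ogn, a small leucine-rich proteoglycan, was just past 2-fold higher at 1.01. Loxl4, a lysyl oxidase that crosslinks fibrils, was lowest at -0.95, but -0.76 as the mean of its 2 probes.

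Among the detected receptors, proteases and regulators of these collagens, 0 passed 2-fold, where 2.50% of all detected genes did. In lists this short, a count of 0 is close to that share. Genes not well above background on both arrays were left out of the count. Of 13 genes of binding and uptake, 11 were detected, with a median of -0.12, from -0.45 for Itga11, the integrin chain of a fibrillar collagen receptor, to 0.69 for Antxr1, which binds type VI collagen. Of 12 genes of collagen cleavage and its inhibition, 8 were detected, with a median of 0.15, from -0.74 for Timp1, an inhibitor of matrix proteases, to 0.58 for Mmp14, a membrane-bound collagenase. All 26 regulators of fibrillar collagen transcription were detected, with a median of -0.03, from -0.75 for Smad7, an inhibitor of TGF-β signalling, to 0.67 for Tgfb2, one of its ligands. Sp1, whose motif was searched above, had a ratio of -0.04.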

How the data were processed

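RNA of primary mouse chondrocytes, taken before loading and 24 h later, was hybridised to 2 one-colour SurePrint G3 Mouse arrays, 1 per time point. The authors deposited the processed intensity of each spot from Feature Extraction 10.10.1.1, background-subtracted and not normalised between arrays; a deposited value table held the same intensities within 0.497%. Of 59305 non-control spots, 59.14% before loading and 57.7% at 24 h were well above background, and 0 were saturated. Outlier spots (141 and 138) were left out, spots of a probe were averaged, and log2 intensity minus each array's 75th percentile was used. Accessions without versions were named through a RefSeq table (GRCm38.p6), which matched 27229 of 55678 probes to 20656 genes. The arrays were designed on another build, so that table gave names, chromosomes and neighbouring genes only, and the positions printed are those of the RefSeq promoters (GRCm38.p6), not of probes. A gene was detected (14227 genes) where its brightest probe was well above background on both arrays. Calls are past 2-fold, with no test, and precision is limited by having 2 arrays. A difference between chains carries the errors of both ratios.

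The genes named are the 10 collagens and, of each of the 18 context and marker lists, those past 2-fold, the highest and the lowest, plus Col2a1, Acan and Sox9; other names were chosen after their values were seen. The collagens and the lists were chosen with earlier results of these data known. Alternatives were other scalings (median, quantile, loess, spike-in controls, 75th percentile over detected probes), normexp background correction of the median spot signal (offset 50), the deposited table, and other filters and folds. Normexp, quantile and loess used R 4.3.3 (limma 3.58.1), and all else Python 3.11.15 with pandas 2.3.3, numpy 2.4.6 and scipy 1.17.1.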

Additional observations from a re-analysis of the deposited data

How the results depend on the processing

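The ratios of the 9 fibroblast-type collagens shifted by under 1 within-array error in each of 8 alternative settings, and the count past 2-fold stayed at 0. Several of these settings could hardly have given another outcome. Median, spike-in and detected-probe percentile scaling add 1 constant to every gene (0.10, 0.12 and 0.02), below that error. The mean over probes can change only Col14a1, the 1 gene with more than 1 probe. The deposited table held the same intensities within 0.497%. Col1a1 changed sign with median, quantile, loess and spike-in scaling, and the other 8 genes did not. Col6a3 stayed beyond 1 error in all 8 (-0.41 to -0.29) and Col5a2 in 5 (-0.23 to -0.11), and Col3a1 passed 1 error in 2 (0.23 with median and 0.25 with spike-in scaling). The median of the 9 genes ran from -0.04 to 0.08, positive under the same 4 scalings. Of the 18 list medians, 5 turned sign under at least 1 of 10 settings: endothelial (-0.05 to 0.07), other collagens (-0.06 to 0.14), fibril assembly (-0.15 to 0.03), receptors (-0.12 to 0.00) and transcription (-0.04 to 0.09). Median scaling moved the median of all detected genes by 0.10 and spike-in scaling by 0.12. Of the genes past 2-fold, 26.8% were higher, but 38.8% with median scaling (130 higher, 205 lower) and 42.6% with spike-in scaling (138 and 186). Against 95 higher and 260 lower, normexp gave 38 and 117, no filter on dim probes 492 and 983, detection on 1 array 192 and 507, a margin of 2 errors past 2-fold 25 and 99, and 1.5-fold 520 and 831; the cause was not tested beyond what each setting keeps or drops. The median brightness percentile of the 9 genes, 95.9, was 94.9 among genes, 93.1 among probes well above background and 96.5 with normexp, and of 36 single percentiles 22 moved, most for Col14a1 (81.6 to 68.5) and Col5a2 (84.8 to 74.0) among probes well above background. No replicate could be left out. No paired analysis was possible because each time point had 1 array.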
